A study of Mus musculus with 24 samples.

Results

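The 38 genes described here belong to developing cranial sensory neurons and their ganglia: transcription factors that specify them, and proteins of their axons, vesicles and surface. They are a named list, matched by Entrez identifier, among 26611 genes with an identifier in the count table of the series. All 38 were found, 32 had enough counts to be tested, and 6 did not. RNA-seq was done on 24 libraries of polyadenylated RNA from the pharyngeal arches 1 and 2, the swellings beside the embryonic throat from which jaws and ears form. The embryos were female mice on a C57BL/6 background at E10.5, with 4 biological replicates for every genotype. The labels give the genotypes as wild type (Kat6a +/+, Dlx5 +/+), Kat6a heterozygous (Kat6a +/-, Dlx5 +/+), Dlx5 heterozygous (Kat6a +/+, Dlx5 +/-), double heterozygous (Kat6a +/-, Dlx5 +/-), Dlx5 homozygous (Kat6a +/+, Dlx5 -/-) and Kat6a homozygous (Kat6a -/-, Dlx5 +/+). Kat6a encodes a histone acetyltransferase and Dlx5 a homeodomain factor of the ventral arch, and the title of the series asks what loss of either or both does to the developing face.

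Cranial sensory neurons arise from neural crest and from ectodermal placodes beside the hindbrain, and their ganglia lie next to the arches that their axons enter. Proneural basic helix-loop-helix (bHLH) factors start the programme, homeodomain factors such as Pou4f1, Isl1 and Tlx3 give the neurons their sensory identity, and genes of the cytoskeleton, axon and synapse follow. A dissection of the arches can carry along more or less of these ganglia. In bulk RNA, fewer cells of a type and less RNA per cell cannot be told apart.

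Total counts ran from 10406452 to 28198111 per library. The embryos came from 2 mouse facilities, given as batches: batch 2 supplied the 4 Kat6a homozygous and the 4 wild type libraries, batch 1 the 4 Dlx5 homozygous ones, and the 3 heterozygous groups were split between them. Neither targeted gene passed the test as lower in the libraries labelled homozygous for it. Kat6a stood at 211 to 242 CPM (read counts brought to a common library size, with TMM scaling) in the libraries labelled Kat6a homozygous and at 148 to 247 CPM in wild type (log2 fold change 0.17, SE 0.10, edgeR adjusted p = 0.474). Dlx5 stood at 57.7 to 67.5 CPM in the libraries labelled Dlx5 homozygous and at 64.6 to 79.0 CPM in wild type (log2 fold change 0.03, SE 0.11, edgeR adjusted p = 0.947). Dlx5 was lower in the libraries labelled Kat6a homozygous, at 34.5 to 42.4 CPM (log2 fold change -0.87, SE 0.08, edgeR adjusted p = 1.5e-07). The labels do not describe the alleles, so every group name below stands for the label of the libraries. All 12 mesenchyme markers of the arches were expressed, with a summed level of 1941 to 2654 CPM over the 24 libraries.

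Promoter sequence was available for 28 of the 38 genes, as the 250 bases before a start site in RefSeq GRCm38.p6. The letters CANNTG, the E-box to which bHLH factors bind, occurred on either strand in 15 of 28 genes (53.6%) and in 69.3% of the 27025 genes of the RefSeq table. CAGATG, which reads CATCTG on the other strand and is one form of CANNTG, occurred in 6 of 28 (21.4%) against 16.3%. CAGCTG, another form of CANNTG, occurred in 7 of 28 (25%) against 14.7%, and CATATG in 1 of 28 (3.57%) against 3.98%. The 21-base core of RE1, the silencer element of neuronal genes, was searched with no mismatch allowed. It occurred in 0 of 28 windows and in 1 of all 27025 genes (0.0037%). So strict a match is too rare for this count to show that the members lack RE1. Such matches are letters in a window and show no binding.

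The last 150 bases before the start are printed for 4 genes whose level differed many-fold between libraries of the same genotype (Elavl3, Pou4f1, Stmn3 and Tubb3) and for 3 whose level hardly differed (Isl1, Ebf3 and Six5), so that both kinds can be compared. Each is read 5′ to 3′ on the strand of its gene, with every CANNTG in capitals.
Elavl3: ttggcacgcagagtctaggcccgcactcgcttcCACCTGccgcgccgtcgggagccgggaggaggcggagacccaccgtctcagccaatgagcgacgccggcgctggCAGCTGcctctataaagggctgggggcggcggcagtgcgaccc
Pou4f1: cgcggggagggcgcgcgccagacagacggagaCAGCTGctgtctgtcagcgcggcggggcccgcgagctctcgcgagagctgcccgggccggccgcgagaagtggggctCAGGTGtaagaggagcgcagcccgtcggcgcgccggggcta
Stmn3: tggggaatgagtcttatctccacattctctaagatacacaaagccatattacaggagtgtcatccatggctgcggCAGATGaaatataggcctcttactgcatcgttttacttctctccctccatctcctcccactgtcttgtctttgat
Tubb3: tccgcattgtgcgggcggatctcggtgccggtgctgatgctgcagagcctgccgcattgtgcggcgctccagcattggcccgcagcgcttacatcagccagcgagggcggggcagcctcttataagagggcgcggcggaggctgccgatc
Isl1: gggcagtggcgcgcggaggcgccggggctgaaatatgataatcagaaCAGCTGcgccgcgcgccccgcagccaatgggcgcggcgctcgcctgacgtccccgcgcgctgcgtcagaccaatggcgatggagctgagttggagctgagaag
Ebf3: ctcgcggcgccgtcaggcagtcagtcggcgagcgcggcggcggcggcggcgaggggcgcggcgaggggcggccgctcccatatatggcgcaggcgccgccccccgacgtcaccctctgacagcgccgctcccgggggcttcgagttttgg
Six5: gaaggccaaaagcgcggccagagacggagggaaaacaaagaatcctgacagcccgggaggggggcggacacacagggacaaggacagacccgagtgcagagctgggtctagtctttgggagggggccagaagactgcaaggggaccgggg
The stretches lie at chr9:22052024-22052173 (minus strand) for Elavl3, chr14:104468000-104468149 (minus) for Pou4f1 and chr2:181314501-181314650 (minus) for Stmn3. That of Tubb3 lies at chr8:123411403-123411552 (plus), that of Isl1 at chr13:116309689-116309838 (minus), that of Ebf3 at chr7:137314446-137314595 (minus) and that of Six5 at chr7:19094394-19094543 (plus). All lie directly upstream of an annotated start, which for Elavl3, Pou4f1 and Ebf3 is inside the annotated span of the gene. An E-box stood in the stretches of Elavl3, Pou4f1, Stmn3 and Isl1 and in none of those of Tubb3, Ebf3 and Six5. Stretches with and without it thus occurred in both kinds, and so few picked genes cannot show whether it goes with the level. Among the 21 genes that differed most between libraries (defined below), 16 had a window and 9 of these held CANNTG (56.2%). Of the other members, 12 had a window and 6 held it (50%). These other members include genes too low to be tested, so they are not a set with an even level.

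Most of the neuron genes were either high together or low together in a library, and that level differed within genotypes. Averaged over the 32 tested genes, log2 CPM was 0.50 to 1.37 in 14 libraries and 2.30 to 3.82 in the other 10. The 10 were replicate 2 of wild type, of Kat6a heterozygous and of Kat6a homozygous, replicates 2, 3 and 4 of Dlx5 heterozygous and all 4 double heterozygous libraries. The 4 Dlx5 homozygous libraries stood at 0.50 to 0.95 and overlapped with wild type replicates 1, 3 and 4 at 0.77 to 0.98. Both batches held libraries of both kinds.

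**Figure D1:**
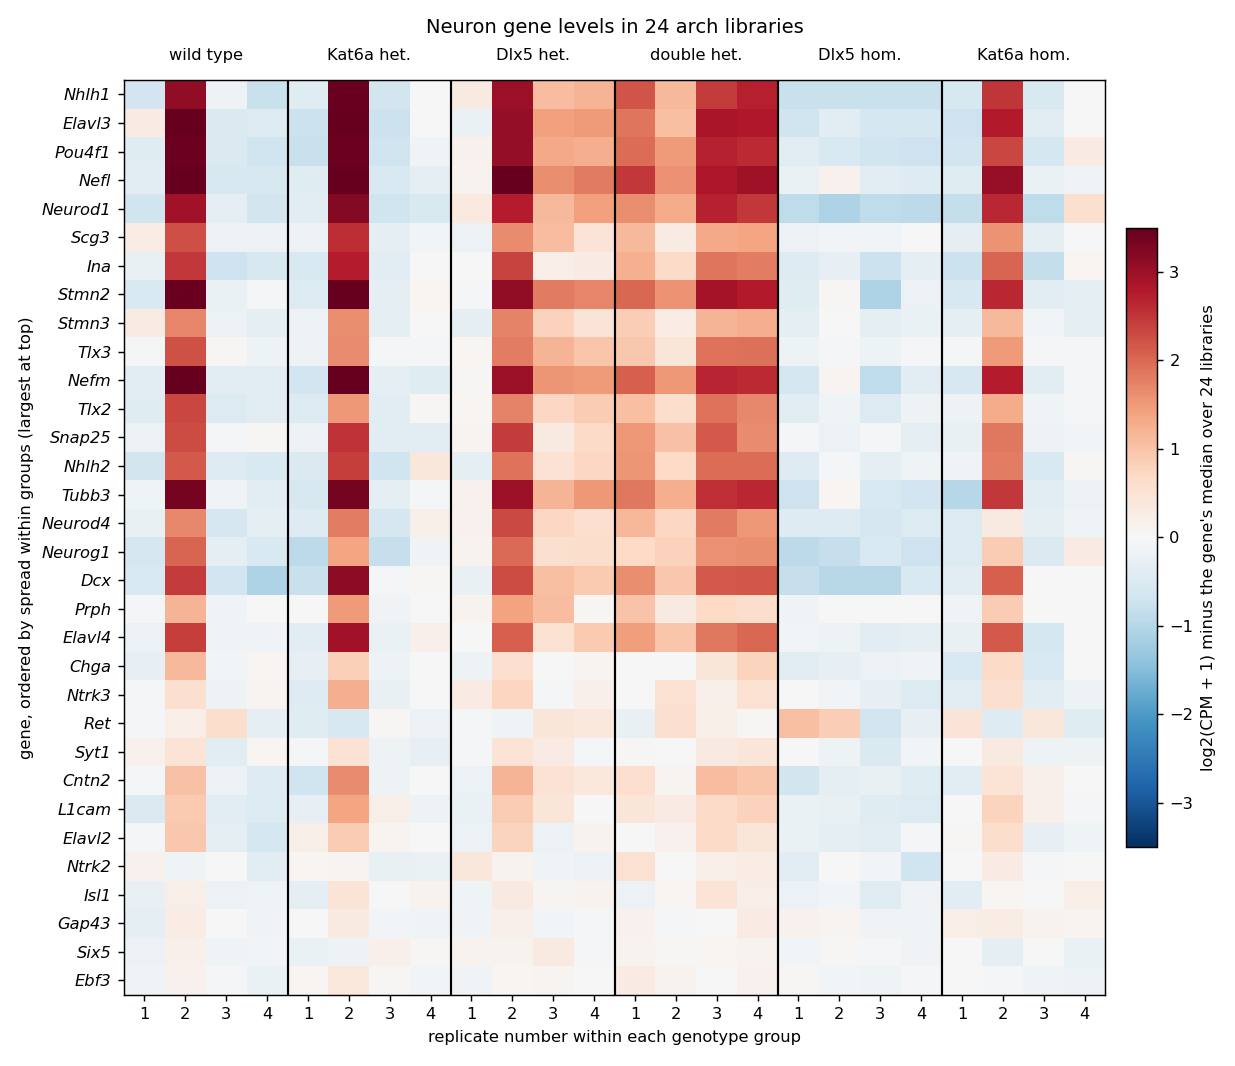
Level of the 32 tested neuron genes (rows, ordered by spread within groups, largest at the top) in the 24 libraries (columns, by genotype and replicate number), as log2(CPM + 1) minus the gene's median over the libraries. Replicate 2 of wild type, Kat6a heterozygous, Dlx5 heterozygous and Kat6a homozygous and all 4 double heterozygous libraries are red in most rows, and the rows of Ntrk2, Isl1, Gap43, Six5 and Ebf3 are nearly even.

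In wild type, Kat6a heterozygous, Dlx5 heterozygous and Kat6a homozygous libraries, replicate 2 had by far the highest level. It was the highest of its group for 30 of 32 genes in wild type (25.2% of all 14506 genes tested), 30 of 32 in Kat6a heterozygous (25.9%), 28 of 32 in Dlx5 heterozygous (31.7%) and 28 of 32 in Kat6a homozygous libraries (25.7%). Replicate 2 also had the highest mean log2 CPM among the Dlx5 homozygous libraries, by a small margin (0.95 against 0.50 to 0.75), and led there for 15 of 32 genes (20.7%). The counts that follow are over the other 4 groups just named. Replicate 2 exceeded the median of replicates 1, 3 and 4 by over 2-fold in all 4 groups for 21 of 32 genes, against 104 of all 14506 genes (0.717%). The median excess of these 21 genes was 4.07 log2 units in wild type, 4.14 in Kat6a heterozygous, 1.801 in Dlx5 heterozygous and 3.27 in Kat6a homozygous libraries. The smallest excess among the 21 was that of Chga in Dlx5 heterozygous libraries (1.09 log2 units), and Ntrk3, L1cam, Elavl2 and Syt1 lay just outside, with smallest excesses of 0.87, 0.85, 0.82 and 0.78. A further 5 genes stayed within 0.5 log2 units in all 4 groups (Isl1, Gap43, Ebf3, Six5 and Ntrk2), as did 77.5% of all genes. Elavl2, Cntn2, L1cam, Ntrk3 and Syt1 lay between, and Ret followed neither pattern. Prph and Chga, both among the 21, had enough counts to be tested only with these replicate 2 libraries included. Their place among the 21 was thus favoured in advance. The bounds of 2-fold and 0.5 log2 units were chosen after the values were seen, so these counts describe the libraries and carry no test.

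**Figure D2:**
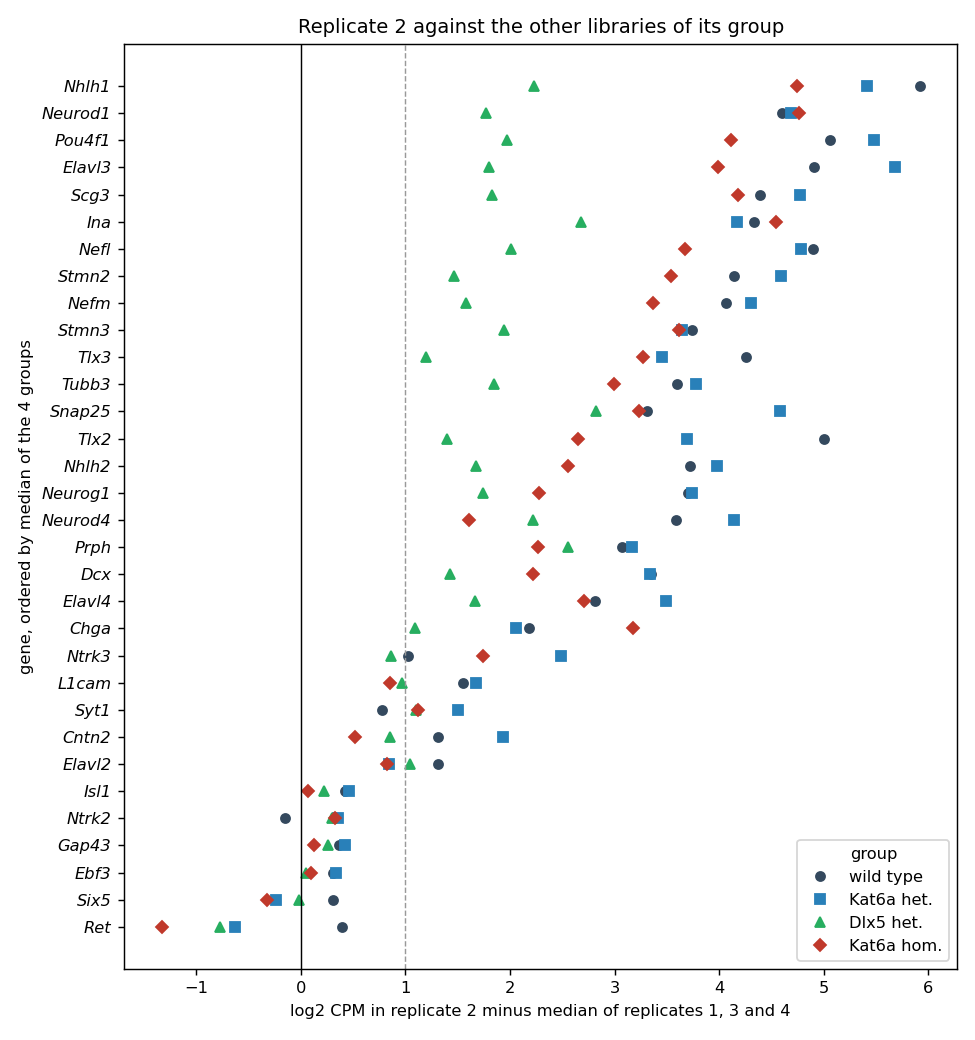
Excess of replicate 2 over the median of replicates 1, 3 and 4 of its group, in log2 CPM (horizontal axis), for the 32 tested genes (vertical axis, ordered by the median of the 4 groups). Symbols mark wild type, Kat6a heterozygous, Dlx5 heterozygous and Kat6a homozygous libraries, and the dashed line marks 2-fold; Nhlh1, at the top, reaches 5.92 log2 units in wild type and Ret, at the bottom, lies below 0 in 3 of the 4 groups.

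The proneural and early bHLH factors were all of the varying kind where they could be tested (5 of 5). Neurog1, which commits precursors to the neuronal fate, stood in replicates 1 to 4 at 0.359, 7.36, 0.605 and 0.421 CPM in wild type, 0.0875, 4.27, 0.174 and 0.888 CPM in Kat6a heterozygous and 1.21, 7.13, 2.02 and 2.15 CPM in Dlx5 heterozygous libraries. It stood at 2.28, 2.61, 5.16 and 5.30 CPM in double heterozygous, 0.0837, 0.172, 0.413 and 0.242 CPM in Dlx5 homozygous and 0.453, 2.80, 0.431 and 1.5 CPM in Kat6a homozygous libraries. The 4 double heterozygous libraries were all above the 4 Dlx5 homozygous ones, and wild type overlapped with both.

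Neurod1, which acts downstream of the neurogenins in young neurons, stood at 0.538, 18.0, 0.951 and 0.589 CPM in wild type, 0.875, 22.2, 0.521 and 0.710 CPM in Kat6a heterozygous and 2.14, 15.5, 4.42 and 5.67 CPM in Dlx5 heterozygous libraries. It stood at 6.66, 5.12, 14.9 and 12.8 CPM in double heterozygous, 0.335, 0.172, 0.330 and 0.323 CPM in Dlx5 homozygous and 0.377, 14.4, 0.344 and 2.64 CPM in Kat6a homozygous libraries. Replicate 2 of wild type was 30.6 times the median of the other 3 wild type libraries, and replicates 1, 3 and 4 overlapped between wild type, Kat6a heterozygous and Kat6a homozygous. Nhlh1, a bHLH factor of newly born neurons, was at 13.7 CPM in wild type replicate 2 and at 0 to 0.519 CPM in the other wild type libraries, and had 0 counts in all 4 Dlx5 homozygous libraries. Neurod4 and Nhlh2 behaved alike, with excesses of replicate 2 between 1.61 and 4.14 and between 1.68 and 3.98 log2 units. Neurog2, which helps to specify epibranchial placode neurons, had 30 counts over all 24 libraries and was not tested.

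The factors of sensory identity fell into several kinds. Pou4f1 (Brn3a), a POU homeodomain factor of almost all early somatosensory neurons, stood at 0.610, 22.5, 0.519 and 0.337 CPM in wild type, 0.263, 22.5, 0.347 and 0.977 CPM in Kat6a heterozygous and 1.40, 17.4, 4.42 and 4.30 CPM in Dlx5 heterozygous libraries. It stood at 7.48, 5.12, 13.0 and 12.4 CPM in double heterozygous, 0.669, 0.515, 0.330 and 0.323 CPM in Dlx5 homozygous and 0.377, 10, 0.431 and 1.67 CPM in Kat6a homozygous libraries. Of the other 2 genes of this role over 2-fold in all 4 groups, Tlx3 ranged from 0 to 4.25 CPM. Tlx2, its relative in the TLX family of homeodomain factors, stood at 0.0359, 6.05, 0 and 0.0841 CPM in wild type, 0, 3.01, 0.0868 and 0.444 CPM in Kat6a heterozygous and 0.465, 3.65, 1.29 and 1.61 CPM in Dlx5 heterozygous libraries. It stood at 1.92, 1.13, 4.23 and 3.48 CPM in double heterozygous, 0.0837, 0.258, 0 and 0.242 CPM in Dlx5 homozygous and 0.227, 2.46, 0.258 and 0.352 CPM in Kat6a homozygous libraries. For both Pou4f1 and Tlx2, double heterozygous lay wholly above Dlx5 homozygous and overlapped with wild type.

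Isl1, a LIM homeodomain factor of sensory and motor neurons that arch epithelium and mesoderm also express, was far more even. It stood at 26.9, 37.3, 27.8 and 29.3 CPM in wild type, 25.9, 44.7, 32.4 and 35.8 CPM in Kat6a heterozygous and 29.2, 40.5, 34.8 and 35.6 CPM in Dlx5 heterozygous libraries. It stood at 27.9, 34.0, 45.5 and 38.4 CPM in double heterozygous, 28.3, 30.4, 24.0 and 29.6 CPM in Dlx5 homozygous and 25.0, 34.1, 32.6 and 38.1 CPM in Kat6a homozygous libraries. Replicate 2 was still the highest in wild type, Kat6a heterozygous and Dlx5 heterozygous, by 1.34, 1.38 and 1.17 times the median of the others, and the range of every group overlapped with that of wild type.

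Ebf3, a helix-loop-helix factor of neurons and of several mesenchymes, stood at 151, 187, 162 and 145 CPM in wild type, 177, 218, 173 and 158 CPM in Kat6a heterozygous and 155, 178, 180.5 and 172 CPM in Dlx5 heterozygous libraries. It stood at 205, 184, 166 and 188 CPM in double heterozygous, 174, 157, 151 and 166 CPM in Dlx5 homozygous and 172, 162, 151 and 146 CPM in Kat6a homozygous libraries. The groups overlapped, and no library was as much as 2-fold above another. Six5, a homeodomain factor of the sine oculis family, stood at 36.1, 47.2, 38 and 39.4 CPM in wild type, 35.4, 36.7, 47.7 and 43.1 CPM in Kat6a heterozygous and 46.0, 45.4, 52.2 and 39.6 CPM in Dlx5 heterozygous libraries. It stood at 45.9, 43.5, 43.7 and 45.8 CPM in double heterozygous, 38.9, 43.0, 40.9 and 38.7 CPM in Dlx5 homozygous and 41.7, 33.3, 42.0 and 35.3 CPM in Kat6a homozygous libraries. Six5 was the lowest of the Kat6a homozygous libraries in replicate 2 and the highest of the wild type libraries in replicate 2.

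The remaining 3 identity factors were near 0. Phox2a, the homeodomain factor of visceral sensory and autonomic neurons, had 17 counts in all: 0.0359, 0, 0 and 0 CPM in wild type, 0.0875, 0.158, 0.0868 and 0 CPM in Kat6a heterozygous and 0, 0, 0 and 0.119 CPM in Dlx5 heterozygous libraries. It stood at 0, 0.174, 0.0846 and 0.248 CPM in double heterozygous, 0, 0.0859, 0.0825 and 0 CPM in Dlx5 homozygous and 0.0755, 0.0848, 0 and 0 CPM in Kat6a homozygous libraries. Replicate 2 of wild type, where Pou4f1 was at 22.5 CPM, held no Phox2a count. Pou4f2 had 4 counts over the 24 libraries. Prrxl1 (Drg11), a paired homeodomain factor of pain and touch neurons, had 51 counts in all and was at 0 in 14 libraries; it was nonetheless highest in replicate 2 in the 4 groups named above.

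**Figure D3:**
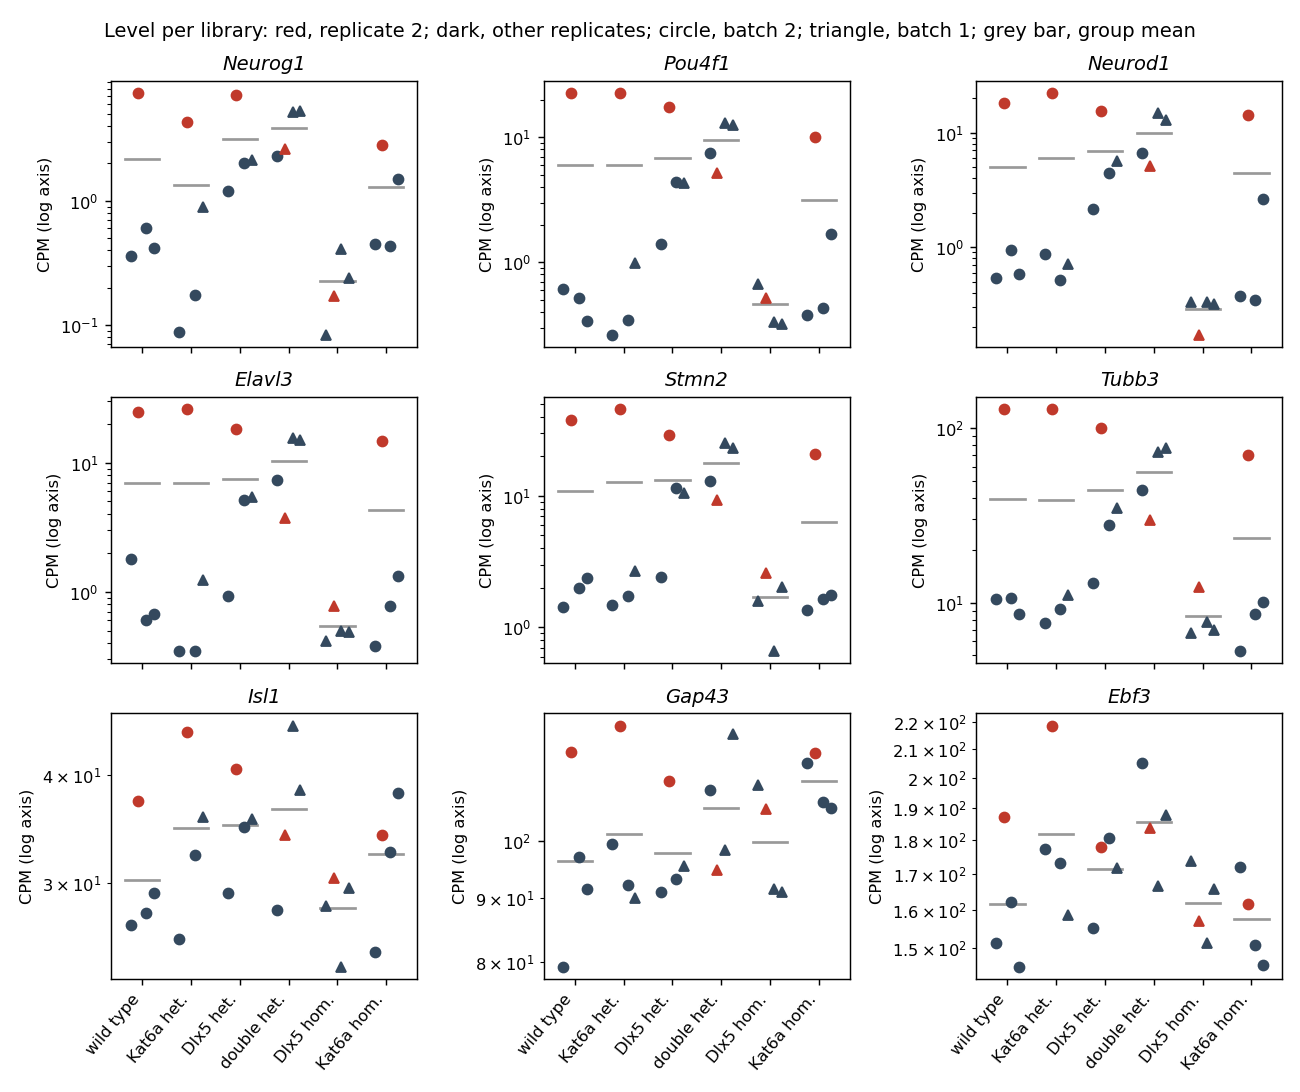
CPM on a log axis in every library for 9 genes, by genotype; red marks replicate 2, circles batch 2, triangles batch 1 and grey bars the group mean. For Neurog1, Pou4f1, Neurod1, Elavl3, Stmn2 and Tubb3 the red circles of batch 2 are the highest of their group, mostly by a wide margin. The margin is small for Neurog1 in Kat6a homozygous (2.80 CPM against 1.5 CPM in replicate 4). Isl1, Gap43 and Ebf3 differ by less than 2-fold on their narrower axes.

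Among the ELAV proteins, which bind RNA and mark neurons from their birth, Elavl3 and Elavl4 varied and Elavl2 did less so. Elavl3 (HuC) stood at 1.79, 24.8, 0.605 and 0.673 CPM in wild type, 0.350, 25.9, 0.347 and 1.24 CPM in Kat6a heterozygous and 0.930, 18.4, 5.15 and 5.43 CPM in Dlx5 heterozygous libraries. It stood at 7.39, 3.73, 15.4 and 15.0 CPM in double heterozygous, 0.418, 0.773, 0.495 and 0.484 CPM in Dlx5 homozygous and 0.377, 14.7, 0.775 and 1.32 CPM in Kat6a homozygous libraries. Replicate 2 of Kat6a heterozygous was 73.9 times the median of its 3 companions, and double heterozygous and Dlx5 homozygous did not overlap. Elavl2 was at 8.16 to 25.8 CPM over all libraries, with an excess of replicate 2 of 0.82 to 1.31 log2 units.

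All 4 genes of neuronal microtubules varied. Tubb3, the neuronal beta-tubulin, stood at 10.4, 128, 10.6 and 8.66 CPM in wild type, 7.61, 128, 9.20 and 11 CPM in Kat6a heterozygous and 13.0, 100.2, 27.7 and 34.9 CPM in Dlx5 heterozygous libraries. It stood at 44.0, 29.7, 73.0 and 77.1 CPM in double heterozygous, 6.69, 12.3, 7.76 and 6.93 CPM in Dlx5 homozygous and 5.28, 69.7, 8.61 and 10.1 CPM in Kat6a homozygous libraries. The 4 libraries at 69.7 CPM or above outside the double heterozygous group were the 4 replicates with number 2 of batch 2.
Stmn2, a stathmin of growing axons, stood at 1.43, 37.6, 1.99 and 2.35 CPM in wild type, 1.49, 45.6, 1.74 and 2.66 CPM in Kat6a heterozygous and 2.42, 29.1, 11.4 and 10.4 CPM in Dlx5 heterozygous libraries. It stood at 13.0, 9.38, 25.3 and 23.0 CPM in double heterozygous, 1.59, 2.58, 0.660 and 2.02 CPM in Dlx5 homozygous and 1.36, 20.8, 1.64 and 1.76 CPM in Kat6a homozygous libraries. As with Tubb3, every double heterozygous library was above every Dlx5 homozygous one, and wild type overlapped with both. Dcx (doublecortin), the microtubule protein of migrating neurons, had excesses of 1.42 to 3.35 log2 units in replicate 2, and Stmn3 of 1.94 to 3.74.

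Of the intermediate filament genes, 4 of 4 tested varied. Nefl, the light neurofilament subunit, stood at 1.94, 52.1, 1.56 and 1.60 CPM in wild type, 1.84, 54.8, 1.65 and 2.04 CPM in Kat6a heterozygous and 3.16, 43.6, 10.7 and 12.4 CPM in Dlx5 heterozygous libraries. It stood at 20.2, 10.6, 25.9 and 28.9 CPM in double heterozygous, 2.26, 3.18, 1.90 and 1.77 CPM in Dlx5 homozygous and 1.81, 30.4, 2.24 and 2.47 CPM in Kat6a homozygous libraries. Wild type replicates 1, 3 and 4 lay between 1.56 and 1.94 CPM, and replicate 2 was 32.6 times their median. Prph (peripherin), a filament of peripheral neurons, was much lower, at 0.0359, 1.47, 0 and 0.0841 CPM in wild type, 0.0875, 2.06, 0 and 0.0888 CPM in Kat6a heterozygous and 0.186, 1.87, 1.29 and 0.119 CPM in Dlx5 heterozygous libraries. It stood at 1.19, 0.347, 0.762 and 0.662 CPM in double heterozygous, 0, 0.0859, 0.0825 and 0.0806 CPM in Dlx5 homozygous and 0, 1.02, 0.0861 and 0.0881 CPM in Kat6a homozygous libraries. Only replicate 2 reached 1 CPM in wild type, Kat6a heterozygous and Kat6a homozygous. Nefm and Ina followed Nefl, with excesses of 1.58 to 4.31 and of 2.68 to 4.54 log2 units in replicate 2. Nefh, the heavy subunit that appears in maturing axons, had 85 counts in all, was not tested and was highest in replicate 2 in none of the 4 groups.

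The genes of vesicles and growth cones divided. Snap25, of the vesicle fusion machinery, and Scg3 and Chga, of secretory granules, were over 2-fold higher in replicate 2 of all 4 groups. Syt1, a calcium sensor of synaptic vesicles, was at 0 to 1.03 CPM with an excess of 0.78 to 1.503 log2 units, and its relative Syt4 had 43 counts and was not tested. Gap43, a growth cone protein, ranged only from 79.3 to 124 CPM over the 24 libraries, although replicate 2 was again highest in the 4 groups, by 0.13 to 0.42 log2 units. Per length, Gap43 was the highest of the 38 genes in wild type (mean 73.6 RPKM, CPM divided by gene length in kilobases), with Ebf3 next (32.1 RPKM) and Tubb3 after it (22.8 RPKM). In wild type replicate 2, Tubb3 reached 74.1 RPKM and Gap43 89.9 RPKM.

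None of the 3 receptors for neurotrophic factors was over 2-fold higher in replicate 2 of all 4 groups. Ntrk2 (TrkB), the receptor of BDNF, stood at 12.2, 9.82, 10.9 and 8.07 CPM in wild type, 11.5, 11.8, 8.94 and 9.15 CPM in Kat6a heterozygous and 14.6, 12, 9.75 and 9.37 CPM in Dlx5 heterozygous libraries. It stood at 16.2, 11.1, 12.7 and 13.2 CPM in double heterozygous, 8.28, 10.9, 10.1 and 6.37 CPM in Dlx5 homozygous and 10.8, 13.6, 10.4 and 11.1 CPM in Kat6a homozygous libraries. Double heterozygous was above Dlx5 homozygous in every library, by a narrow margin, and overlapped with wild type. Ret, the receptor of the GDNF family, stood at 1.33, 1.8, 2.68 and 0.925 CPM in wild type, 0.787, 0.633, 1.48 and 1.07 CPM in Kat6a heterozygous and 1.30, 1.16, 2.21 and 2.09 CPM in Dlx5 heterozygous libraries. It stood at 1.00, 2.52, 1.78 and 1.49 CPM in double heterozygous, 3.93, 3.35, 0.495 and 0.968 CPM in Dlx5 homozygous and 2.27, 0.763, 2.15 and 0.793 CPM in Kat6a homozygous libraries. Ret varied between libraries too, but replicate 2 was its highest library in 0 of the 4 groups in which it led the other neuron genes. Ntrk3 (TrkC), the receptor of neurotrophin 3, lay between, with an excess of 0.87 to 2.49 log2 units in replicate 2.

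The 2 axonal adhesion molecules were intermediate. L1cam stood at 4.41, 13.6, 4.93 and 4.54 CPM in wild type, 5.34, 19.1, 7.90 and 5.86 CPM in Kat6a heterozygous and 5.58, 13.4, 9.39 and 6.75 CPM in Dlx5 heterozygous libraries. It stood at 9.31, 8.34, 11.3 and 12.4 CPM in double heterozygous, 5.61, 5.41, 4.70 and 4.52 CPM in Dlx5 homozygous and 6.64, 12.1, 7.67 and 6.43 CPM in Kat6a homozygous libraries. Replicate 2 of wild type was 2.99 times the median of the others, against 2.51 times for Cntn2 (TAG-1), and double heterozygous did not overlap with Dlx5 homozygous for either gene.

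The spread within genotypes was wide for most of these genes. The SD of log2 CPM within groups, pooled over the 6 groups, had a median of 1.34 over the 32 genes and of 0.14 over all 14506 genes. It exceeded 1 for 21 of the 32 genes, against 0.627% of all genes. It was largest for Nhlh1 (2.00), Elavl3 (1.87) and Pou4f1 (1.84) and smallest for Ebf3 (0.13), Six5 (0.15) and Gap43 (0.17). The biological coefficient of variation fitted by edgeR had a median of 0.993 over the members and 0.0841 over all genes.

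Other gene lists were read in the same libraries. Of 22 further genes of cranial ganglion neurons, 17 were tested, and replicate 2 was highest for 16, 14, 15 and 10 of them in wild type, Kat6a heterozygous, Dlx5 heterozygous and Kat6a homozygous, with median excesses of 1.55, 1.86, 1.15 and 0.89 log2 units. Of 12 genes of peripheral glia, the companions of these neurons, 9 were tested, and their median excesses were 0.76, 0.77, 0.40 and 0.51 log2 units. The summed level of the glial list was 199 to 274 CPM in wild type, 163 to 225 in Kat6a heterozygous, 186 to 248 in Dlx5 heterozygous, 196 to 249.5 in double heterozygous, 165 to 221.5 in Dlx5 homozygous and 198 to 235 in Kat6a homozygous libraries. Metrn, at a mean of 112 CPM, had the largest share of this sum. Of these 4 groups, replicate 2 was highest for Metrn only in Kat6a homozygous, so the sum need not follow the median excess. The 10 genes of surface epithelium had a median below 0 in replicate 2 of all 4 groups, at -0.33, -0.61, -0.47 and -0.25 log2 units, though not every gene was lower there, and their summed level ran from 412 to 690 CPM over all libraries. Part of the list of other ganglion genes, such as Six4 and Eya2, is also expressed in arch tissue.

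Most listed genes of the brain and of motor neurons were too low to be tested. Of 15 genes of neural tube progenitors 4 were tested, and of 15 genes of central and motor neurons 3. Several defining genes of these lists were near 0 on average over the 24 libraries: Olig2 at 0.0506 CPM, Nkx2-2 at 0.0239 CPM, Mnx1 at 0.00968 CPM, Lhx3 at 0.0188 CPM and Chat at 0.00349 CPM. The median excess in replicate 2 was -0.34 to 0.03 log2 units for the neural tube list and -0.09 to 0.12 for the central and motor list. Of the 3 tested genes of the latter, Gata2 and Gata3 were even, but Slc17a6, a vesicular glutamate transporter that sensory neurons express too, stood at 0, 1.47, 0.0865 and 0 CPM in wild type, 0.0875, 2.61, 0 and 0.178 CPM in Kat6a heterozygous and 0.0755, 0.593, 0 and 0 CPM in Kat6a homozygous libraries, highest in replicate 2 as most of the neuron genes were. Housekeeping genes had medians between -0.06 and 0.05 log2 units, arch mesenchyme between -0.07 and 0.23, muscle precursors between -0.05 and 0.42, and endothelium between -0.11 and 0.11. The erythroid list was at -0.61 in wild type and between -0.03 and 0.21 in the other 3 groups, and the list of placode and Notch genes lay between 0.03 and 0.09. The part of these cell types in the differences below was not tested.

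**Figure D4:**
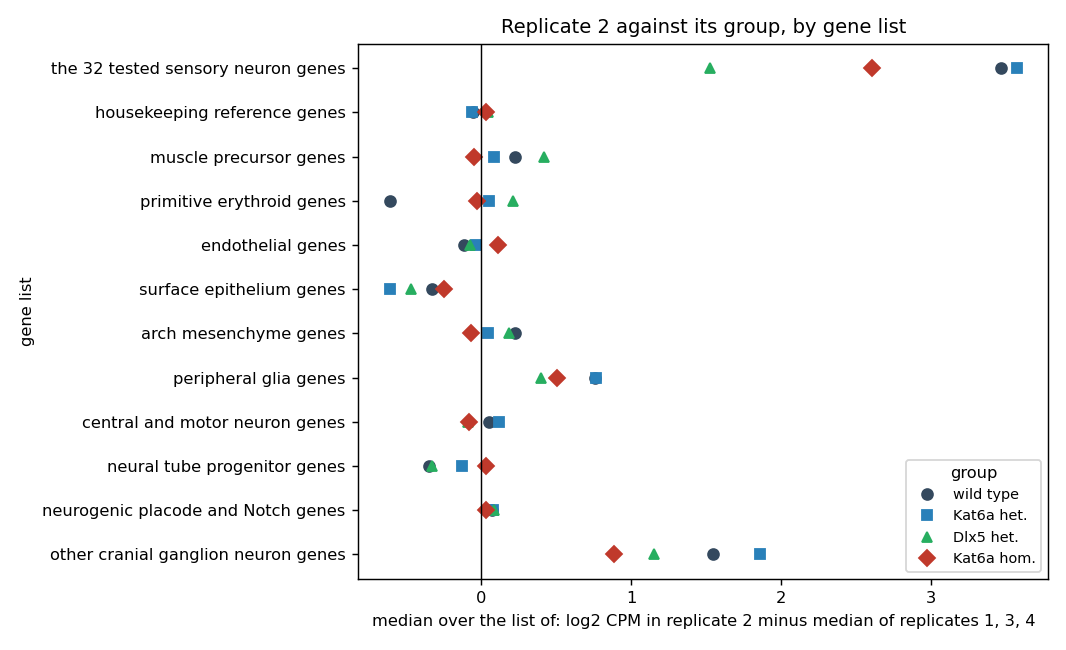
Median over each gene list of the excess of replicate 2 over the median of replicates 1, 3 and 4, in log2 CPM (horizontal axis), for 4 genotype groups (symbols). The tested sensory neuron genes reach 1.52 to 3.57 log2 units, other cranial ganglion neuron genes and peripheral glia genes are also above 0, and the median of the surface epithelium genes is below 0 in all 4 groups.

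None of the 32 genes was called in any comparison with wild type by the quasi-likelihood test of edgeR with batch in the model (adjusted p under 0.05, by Benjamini-Hochberg across the 14506 genes). All 5 comparisons use the same 4 wild type libraries, so that replicate 2 of wild type enters each of them. The standard errors were wide, with a median over the members of 1.06 to 1.69 log2 units against 0.10 to 0.13 over all genes. For DESeq2 and limma voom, counts of members at an unadjusted p under 0.05 are given below without the share over all genes. That share was not computed, so those counts are no result about the members.

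In Kat6a heterozygous libraries the neuron genes were spread around wild type. Their median log2 fold change was 0.26 (0.01 over all genes), and 26 of 32 values were above 0. Of the 32, 0 were called (0.0% of all genes were) and 1 had an unadjusted p under 0.05 (11.4% of all genes), Ebf3, with a log2 fold change of 0.21 (SE 0.08, edgeR adjusted p = 0.361). DESeq2 and limma voom called 0 genes and gave 1 each at an unadjusted p under 0.05. Tubb3 had a log2 fold change of 0.11 (SE 1.04) and Pou4f1 of 0.20 (SE 1.28).

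In Dlx5 heterozygous libraries, 30 of 32 values were above 0, with a median of 0.42 (0.01 over all genes). Replicates 3 and 4 of this group, from different batches, were above wild type replicates 1, 3 and 4 for Neurog1, Neurod1, Pou4f1, Elavl3, Tubb3, Stmn2 and Nefl. Of the members 0 were called (0.0% of all genes) and 1 had an unadjusted p under 0.05 (11.3% of all genes), Six5, with a log2 fold change of 0.21 (SE 0.10, edgeR adjusted p = 0.423). DESeq2 called 0, with 0 at an unadjusted p under 0.05, and limma voom called 0, with 4.

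In double heterozygous libraries the neuron genes were high in all 4 replicates, though Neurog1, Neurod1, Pou4f1 and Tubb3 were below replicate 2 of wild type in each. The median log2 fold change against wild type was 1.13 (0.01 over all genes), and 31 of 32 values were above 0, the exception being Ret (-0.36, SE 0.63). Of the 32, 0 were called (0.448% of all genes) and 2 had an unadjusted p under 0.05 (13.0% of all genes). Those were 2 genes with little spread: Ntrk2, with a log2 fold change of 0.61 (SE 0.18, edgeR adjusted p = 0.121), and Ebf3, with 0.31 (SE 0.10, edgeR adjusted p = 0.159). Pou4f1 had a log2 fold change of 1.39 (SE 1.65) and Tubb3 of 1.00 (SE 1.35). DESeq2 called 0 members, with 2 at an unadjusted p under 0.05, and limma voom 0, with 13, where the share over all genes was not computed. Without wild type replicate 2 the values were 4.82 for Pou4f1 and 2.94 for Tubb3, and still 0 were called. With replicate 2 of wild type, Kat6a heterozygous, Dlx5 heterozygous and Kat6a homozygous all left out, 18 of 29 tested members were called higher (0.783% of all genes), but those libraries stand out by these very genes, so that count supports nothing.

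In the libraries labelled Dlx5 homozygous, 28 of 32 values were below 0, with a median of -1.41 (0.00 over all genes), and 0 were called (0.0551% of all genes) or had an unadjusted p under 0.05 (9.97% of all genes). DESeq2 called 0, with 2 at an unadjusted p under 0.05, and limma voom 0, with 0. The 2 groups share no batch, so the facility and the genotype can be separated only through the batch term that the heterozygous groups provide. For 7 of the 16 genes listed by sample the direction turned when a single wild type library, replicate 2, was left out. Pou4f1 had a log2 fold change of -2.81 (SE 2.41) with all libraries and of 0.61 without wild type replicate 2, Tubb3 of -1.64 (SE 1.63) and 0.30, and Nefl of -1.72 (SE 2.06) and 1.24. Without that library the values of Stmn2, Prph, Tlx2 and L1cam also turned, to 0.48, 2.40, 1.73 and 0.50, while Neurog1, Neurod1 and Elavl3 were at -0.79, -0.60 and -0.49. L1cam, at -0.03 (SE 0.58) with all libraries, also turned without each of several other single libraries, and Prph without double heterozygous replicate 1. The groups did not overlap, with Dlx5 homozygous lower, for 3 of 32 genes after removal of the batch effect (6.05% of all genes) and for 1 in CPM as measured (2.29%). In CPM as measured, the Dlx5 homozygous libraries had 6.69 to 12.3 CPM of Tubb3, over the range of wild type replicates 1, 3 and 4 at 8.66 to 10.6 CPM.

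In the libraries labelled Kat6a homozygous, 28 of 32 values were below 0, with a median of -0.36 (0.01 over all genes). Of the 32, 0 were called (1.53% of all genes) and 0 had an unadjusted p under 0.05 (13.6% of all genes). DESeq2 called 0, with 0 at an unadjusted p under 0.05, and limma voom 0, with 1. Replicate 2, the only high library of this group, was below replicate 2 of wild type for Neurog1, Neurod1, Pou4f1, Elavl3, Tubb3, Stmn2 and Nefl. Tubb3 had a log2 fold change of -0.72 (SE 1.08), and Gap43, with little spread, of 0.22 (SE 0.11, edgeR adjusted p = 0.395).

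The non-additive part, by which the double heterozygous level differs from the sum of the Kat6a and Dlx5 heterozygous log2 changes, had a median of 0.42 log2 units (-0.01 over all genes). Of the 32, 0 were called (0.00689% of all genes) and 0 had an unadjusted p under 0.05 (5.4% of all genes), and DESeq2 and limma voom likewise called 0, with 0 at an unadjusted p under 0.05. For Tubb3 it was 0.57 (SE 1.52).

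Double heterozygous and Dlx5 homozygous labelled libraries share batch 1, and most of the neuron genes were higher in double heterozygous. Over all libraries with the batch term, the median log2 fold change was 2.77 (0.00 over all genes) and 31 of 32 values were above 0. The groups did not overlap, with double heterozygous higher, for 28 of 32 genes after removal of the batch effect (4.74% of all genes) and for 27 in CPM as measured (4.43%). The edgeR test with all 24 libraries called 0 (0.0% of all genes), with its spread taken from all 6 groups, and had 17 at an unadjusted p under 0.05 (7.18% of all genes). DESeq2 called 1, Nhlh1 (0.0276% of all genes rose), and limma voom 0, with 22 and 25 at an unadjusted p under 0.05. The share of all genes at that unadjusted p was computed for neither tool. Without the 4 libraries with replicate number 2 named above, which stand out by these very genes, edgeR called 22 of 29 (1.02% of all genes rose).

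Within batch 1 alone, where 3 double heterozygous and 4 Dlx5 homozygous libraries can be compared, 29 of 32 genes did not overlap and were higher in double heterozygous (5.88% of all genes). Of 31 members tested there, 18 rose and 0 fell (edgeR, adjusted p under 0.05; 0.98% of all 14795 genes rose), with a median log2 fold change of 2.98 (0.00 over all genes). The count filter there let a gene in through a single library. Neurog1, Neurod1, Pou4f1 and other members low in all 4 Dlx5 homozygous libraries were thus tested only through libraries where they were high. A fall could hardly be called for them, so the 0 that fell carries no weight, and their rises were favoured in advance. The count of members called was 15 of 25 tested with only the 2 groups fitted and the batch kept as a term (0.896% of all genes rose). Such members entered that fit through the double heterozygous libraries. Leaving out double heterozygous replicate 3 or replicate 4 left 10 calls, leaving out replicate 2 gave 24, and leaving out a Dlx5 homozygous library gave 12 to 15. With DESeq2 the count was 23 and with limma voom 8. The share over all genes was not computed for the left-out libraries or for these tools. Those counts therefore show only how far the calls depend on the setting.

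By role, the calls in batch 1 covered bHLH factors, identity factors and structural genes alike. Neurog1 stood at 2.61, 5.16 and 5.30 CPM in double heterozygous replicates 2 to 4 and at 0.0837, 0.172, 0.413 and 0.242 CPM in Dlx5 homozygous libraries (log2 fold change 4.20, SE 0.40, edgeR adjusted p = 6.5e-05). Neurod4 stood at 1.48, 4.23 and 3.31 CPM against 0.0837, 0.0859, 0 and 0.0806 CPM, from 107 and 3 counts (edgeR adjusted p = 0.000156). Neurod1 differed by 5.19 log2 units (SE 0.51, edgeR adjusted p = 0.00236) and Pou4f1 by 4.45 (SE 0.42, edgeR adjusted p = 0.00153). Nhlh2 rose by 2.75, Tlx2 by 4.25, and Tlx3 was called as well, with 84 counts against 2. Nhlh1 had 255 counts against 0, at least 116-fold higher in CPM with a floor of 3 counts over the Dlx5 homozygous group, although its adjusted p in edgeR was 0.268.

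Snap25 stood at 2.17, 5.84 and 3.89 CPM in double heterozygous and at 0.502, 0.344, 0.495 and 0.242 CPM in Dlx5 homozygous libraries (log2 fold change 3.30, SE 0.39, edgeR adjusted p = 0.000462). Elavl4 stood at 8.17, 15.9 and 17.6 CPM against 3.35, 3.09, 2.64 and 2.66 CPM (log2 fold change 2.24, SE 0.26, edgeR adjusted p = 0.00229). Ina (alpha-internexin) stood at 2.08, 6.18 and 5.79 CPM against 0.418, 0.601, 0.165 and 0.565 CPM (log2 fold change 3.40, SE 0.44, edgeR adjusted p = 0.00229). In all 3 cases every double heterozygous library was above every Dlx5 homozygous one, and replicate 2 was the lowest of the 3. Stmn3, Dcx, Nefl, Scg3, Elavl2, Cntn2, L1cam and Isl1 were the other genes called, with Isl1 the smallest difference at 0.49 (SE 0.10, edgeR adjusted p = 0.0289).

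Some genes with large differences did not pass the test. Tubb3 differed by 2.84 log2 units (SE 0.45, edgeR adjusted p = 0.0838), Stmn2 by 3.49 (SE 0.52, adjusted p = 0.0553), Elavl3 by 4.37 (SE 0.70, adjusted p = 0.0684) and Nefm by 3.00 (SE 0.42, adjusted p = 0.0525). The genes that were even across libraries were also nearly even here. Ebf3 differed by 0.15 (SE 0.06, edgeR adjusted p = 0.368), Six5 by 0.13 (SE 0.06, adjusted p = 0.514) and Gap43 by 0.07 (SE 0.10, adjusted p = 0.863). Ret differed by -0.17 (SE 0.65, edgeR adjusted p = 0.957). Ntrk2, Ntrk3, Syt1 and Chga did not pass either, and Prph, with 21 and 3 counts, was not tested in this fit.

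**Figure D5:**
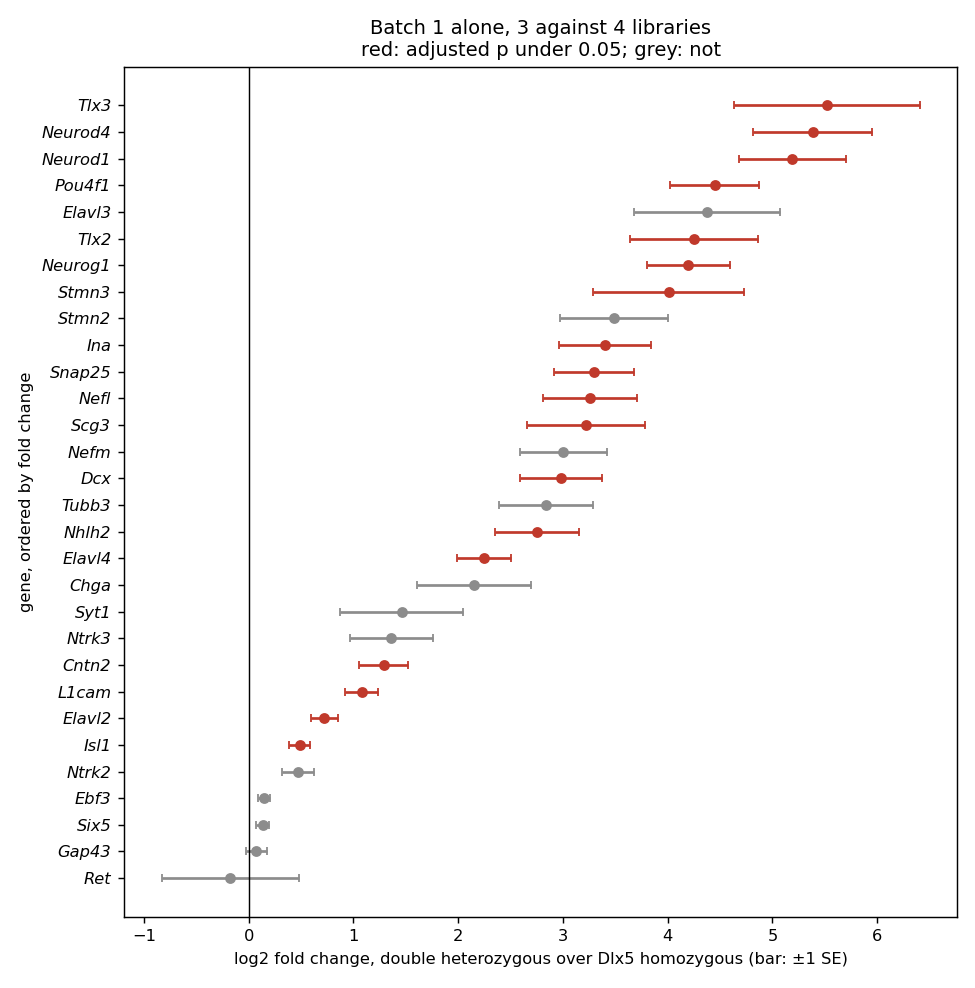
Log2 fold change of double heterozygous over Dlx5 homozygous labelled libraries within batch 1 (3 against 4 libraries), with bars of 1 SE, for the tested genes other than Nhlh1, which had 0 counts in Dlx5 homozygous. Red marks an adjusted p under 0.05; the values run from -0.17 for Ret to 5.52 for Tlx3, and Ebf3, Six5 and Gap43 lie near 0.

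Genes of related cell types moved in the same comparison. In batch 1, 7 of 18 tested genes of the other cranial ganglion list rose and 0 fell, with a list median of 0.93 log2 units. Genes of these lists, too, could enter the batch 1 test through a single library where they were high. Celf3 rose by 2.33 (SE 0.31, edgeR adjusted p = 0.00153), Scn9a, a sodium channel of sensory neurons, by 3.82 (SE 0.62, adjusted p = 0.0045), Srrm4, a splicing factor of neurons, by 4.26 (SE 0.53, adjusted p = 0.00631) and Onecut2 by 2.35 (SE 0.34, adjusted p = 0.00801). Of 10 tested glial genes, 6 rose and 0 fell, among them Ednrb by 1.28 (SE 0.16, edgeR adjusted p = 0.000598), Erbb3 by 0.53, Fabp7 by 1.93 and Foxd3 by 1.81. Of the 13 placode and Notch genes, Dll3 and Hes6 rose by 3.09 and 0.35 and Eya1 fell by 0.23, and of 4 neural tube genes Irx3 rose by 0.36. Slc17a6 had a log2 fold change of 4.78 (SE 1.04, edgeR adjusted p = 0.0643). In the lists of central and motor neurons, arch mesenchyme, surface epithelium, endothelium, erythroid cells, muscle precursors and housekeeping genes 0 were called by edgeR. Whether ganglion tissue in the dissection accounts for these differences was not tested.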

How the data were processed

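Expression was measured by RNA-seq of 24 libraries, 4 for each of 6 genotype labels, with a TruSeq stranded mRNA kit per the labels. The deposited values are whole-number read counts per gene, made by the authors with CASAVA 1.8.2 and featureCounts on mm10, per the submitters' processing notes; no source used here names the aligner, annotation release or strand setting, and reads of a gene and an antisense partner may not be told apart. The single-sample files held the same counts as the table of all samples. Of 27179 entries, 568 carried no identifier (0.182 to 0.259% of counts) and were left out, and 25275 of 26611 identifiers matched a symbol. Counts were filtered with filterByExpr by group, scaled by TMM and tested over 14506 genes with the quasi-likelihood test of edgeR 4.0.16 (R 4.3.3), with group and mouse facility (batch) in the model and 17 residual degrees of freedom; p-values were adjusted by Benjamini-Hochberg over all genes tested. Log2 CPM used a prior count of 2, and RPKM used the deposited gene lengths. Each SE was derived from the edgeR test, as the absolute log2 fold change over the square root of its F statistic. It was not estimated separately, and its ratio to the fold change need not rank genes as the p-value does. The test was also run on simulated counts, drawn for each gene on its own, with no batch effect and no shift shared between genes. Those counts lack the common movement of the members, so that run does not show how the test handles it.

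Alternatives were DESeq2 1.42.0, limma 3.58.1 with voom, RLE scaling, no filter, a filter of 1 CPM in 12 libraries, no batch term, fits within a batch or on the compared groups only, a replicate block, and libraries left out. The fits within batch 1 under other tools, scalings, filters and left-out libraries were chosen after seeing the data. The 38 members and all gene lists were chosen with earlier results of these data known. All members are accounted for by role. The rule for named genes gave values by sample for 16 members, for up to 4 further called members per comparison with the smallest adjusted p, and for up to 4 called genes of each other list; Gap43, Nhlh1, Slc17a6, Irx3 and the near-0 markers were added after their values were seen. The design text calls the 4 libraries of a genotype biological replicates. The deviations of same-numbered libraries correlated above 0.1, the bound used for pairing, in all 4 pairs for Kat6a heterozygous against wild type (0.183, 0.661, 0.185 and 0.200). They did so in 3 of 4 for Kat6a homozygous against wild type (0.0949, 0.569, 0.149 and 0.303). The same held in 3 of 4 for Dlx5 heterozygous against wild type (0.210, 0.518, 0.102 and -0.124). These correlations come from the data, not the labels. Precision follows depth: at 10406452 to 28198111 counts per library, genes with few counts are imprecise, and 0 counts do not show absence. Promoters came from RefSeq GRCm38.p6, which has the coordinates of mm10.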

Additional observations from a re-analysis of the deposited data

Results flagged for a closer look

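For the named genes other than Phox2a, which was not tested, 90 sets of 4 libraries were asked whether a library stood apart, as a gap to its nearest neighbour that took up most of the range in log2 CPM. Chance gives about 1 in 20 such sets, or 4.5, and 18 were found, 16 of them with replicate 2 as the highest library. The sets share libraries and the genes move together, so they are not independent.

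In wild type, replicate 2 stood apart for Neurog1 (gap of 0.854 of the range), Neurod1 (0.857), Pou4f1 (0.885), Tubb3 (0.925), Stmn2 (0.856), Nefl (0.941), Tlx2 (0.884) and L1cam (0.902). In Kat6a heterozygous libraries, replicate 2 stood apart for Neurod1 (0.88), Tubb3 (0.871), Stmn2 (0.838), Nefl (0.942) and Prph (0.831). In Kat6a homozygous libraries, replicate 2 stood apart for Stmn2 (0.91), Nefl (0.895) and Tlx2 (0.852). In Dlx5 homozygous libraries a single library was low, replicate 2 for Neurod1 (0.938) and replicate 1 for Prph (0.95), both at levels of a few counts or none.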

How the results depend on the processing

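Over the comparisons, 0 members were called under every alternative except the following, and the cause was not tested. With replicate 2 of wild type, Kat6a heterozygous, Dlx5 heterozygous and Kat6a homozygous left out, 18 were called in double heterozygous against wild type and 22 in double heterozygous against Dlx5 homozygous. The latter comparison gave 1 with DESeq2, 18 within batch 1 and 15 with only its groups fitted. Within batch 1 alone, limma voom gave 8, and leaving out a library gave 10 to 24, with no share over all genes computed for these. The replicate block called 0 members in every comparison. For Dlx5 homozygous against wild type, values reversed as follows. Prph was at 0.93 with limma voom and 1.09 with the replicate block, and at -1.04 to 2.40 with a library left out. Ntrk2 was at -0.22 without the batch term, -0.084 with the replicate block and -0.000496 to 0.24 with a library left out. Ret was at 0.40 without the batch term, 0.0791 without the 4 libraries and -0.56 to 0.22 with a library left out. Tlx2 was at 0.78 without the 4 libraries and -3.67 to 1.73 with a library left out. L1cam was at 0.0853 with limma voom, 0.0573 with the replicate block, 0.16 without the 4 libraries and -0.27 to 0.50 with a library left out. With a library left out, Pou4f1 ran from -3.61 to 0.61, Tubb3 from -2.29 to 0.30, Stmn2 from -2.77 to 0.48, Nefl from -2.41 to 1.24 and Six5 from -0.0213 to 0.17. In double heterozygous against wild type, Isl1 was at -0.12 within batch 2 and with only the groups fitted, and Ret at 0.0458 without the batch term. In double heterozygous against Dlx5 homozygous, Ret was at 0.17 with limma voom and -0.58 to 0.19 with a library left out. Over the values of single genes, 1420 kept their direction and side of the threshold, 32 passed it, 0 dropped below it and 36 reversed. The median within-group SD was 1.34 with TMM, 1.34 with RLE and 1.48 with a prior count of 0.5. Dlx5 homozygous and wild type libraries share no batch, so fits within a batch or on those groups alone were not run.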

Other observations

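Genes outside the list showed the same pattern, over 2-fold higher in replicate 2 of wild type, Kat6a heterozygous, Dlx5 heterozygous and Kat6a homozygous libraries. They were picked by their values, so no test applies. Myt1, a zinc finger factor of neurons, stood at 0.394, 9.16, 0.173 and 0 CPM in the 4 wild type libraries, with excesses of 2.83 to 5.26 log2 units over the 4 groups. Prdm12, a regulator of pain-sensing neurons, had excesses of 1.83 to 3.91. Sst, which encodes somatostatin, was at 16.1 CPM in wild type replicate 2 and had excesses of 2.03 to 5.75. Ppp1r17 and Grm2 had excesses of 2.52 to 6.08 and of 2.40 to 6.29, Syp (synaptophysin) of 1.98 to 2.65 and Sncg (gamma-synuclein) of 1.53 to 3.95.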
